A study of Mus musculus with 9 samples.

Results

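The unirradiated mouse sublingual gland was represented by the 3 libraries whose titles call them controls without radiation, of 9 RNA-seq libraries in the series. The members were chosen by that label alone, and they are called control 1, control 2 and control 3 by the numbers in their titles. The other 6 libraries came from glands taken 7 days (3 libraries) or 14 days (3 libraries) after a dose of 10 Gy. All 9 libraries carried the same genotype label, wild type, and RNA was isolated from tissue sections of the gland. Age and sex were not given in the sources used here. No label said that the numbered libraries came from separate animals, so the spread and the p-values below measure the spread between these libraries, which may be technical in part.

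The sublingual gland is one of the major salivary glands. In the mouse most of its acini are mucous, with caps of serous cells called demilunes, and its main secreted mucin is Muc19. Acinar cells release stored proteins and fluid when nerves release acetylcholine onto muscarinic receptors, and calcium released inside the cell opens chloride channels, after which water follows through aquaporin 5. The ducts then modify the saliva by taking up and adding ions.

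The markers given for the gland were at the top of the control libraries. Dcpp2, Dcpp3, A2ml1, Muc19 and Dcpp1 held ranks 1 to 5 by mean CPM (counts of a gene relative to all counts of its library, here scaled by the trimmed mean of M-values, TMM, over all 9 libraries). Dcpp1, Dcpp2 and Dcpp3 encode secreted demilune cell and parotid proteins, near-identical neighbours on chromosome 17. Together they took 21.2%, 19.1% and 14.3% of all counts in controls 1, 2 and 3. Their coding sequences are shown because they bear on how reads could be divided among the 3 genes. The first 192 coding bases of each, from the start codon in GENCODE M21, were as follows, with capitals at the 9 positions where the 3 genes differ.
Dcpp1: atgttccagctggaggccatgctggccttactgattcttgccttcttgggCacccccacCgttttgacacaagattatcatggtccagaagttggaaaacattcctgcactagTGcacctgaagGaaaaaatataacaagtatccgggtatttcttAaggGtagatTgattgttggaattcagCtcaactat
Dcpp2: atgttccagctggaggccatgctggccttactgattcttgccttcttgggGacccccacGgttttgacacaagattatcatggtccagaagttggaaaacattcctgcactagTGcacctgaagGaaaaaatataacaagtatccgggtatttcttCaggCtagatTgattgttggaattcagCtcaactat
Dcpp3: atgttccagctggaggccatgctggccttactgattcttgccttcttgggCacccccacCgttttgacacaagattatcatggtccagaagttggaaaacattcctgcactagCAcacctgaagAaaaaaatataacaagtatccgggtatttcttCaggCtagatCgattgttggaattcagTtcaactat

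Over the whole coding sequence, Dcpp1 and Dcpp2 were 93.8% identical, Dcpp1 and Dcpp3 93.2%, and Dcpp2 and Dcpp3 95.3%. The last 109 coding bases were the same in all 3 genes. The annotated span of Dcpp2 also overlaps that of Dcpp1 on the same strand, over all but the first 4 bases of Dcpp1. How the authors' counting treated reads that fit more than one of these genes was not given in the sources used here, so the split among the 3 genes is uncertain, while their sum depends less on it. The 100 bases before the RefSeq start of each gene (GRCm38.p6, plus strand) are printed because the 3 genes were high together and moved together across the controls, with the letters TATAA in capitals.
Dcpp1, chr17:23880776-23880875: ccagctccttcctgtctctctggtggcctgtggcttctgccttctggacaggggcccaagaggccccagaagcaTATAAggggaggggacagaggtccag
Dcpp2, chr17:23898622-23898721: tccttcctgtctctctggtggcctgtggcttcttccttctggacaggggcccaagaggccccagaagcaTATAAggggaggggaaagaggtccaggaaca
Dcpp3, chr17:23917358-23917457: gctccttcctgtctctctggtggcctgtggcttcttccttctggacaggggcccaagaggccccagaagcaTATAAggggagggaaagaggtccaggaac
The 250 bases upstream were 93.3% identical between Dcpp1 and Dcpp2, 94.9% between Dcpp1 and Dcpp3 and 96.4% between Dcpp2 and Dcpp3. TATAA, read on both strands, was present in each, and in 22.8% of the 32851 promoter windows of that length in the RefSeq table. The match is a description of these letters.

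Counts assigned to genes numbered 17800913, 15962399 and 18977590 in controls 1, 2 and 3, so that 3 counts corresponded to 0.169, 0.188 and 0.158 CPM before scaling. A mean of at least 1 CPM was reached by 13478 genes, 12377 of them protein coding. The 20 most abundant genes took 38.3% ± 0.482 (SD, n = 3) of all counts. Protein-coding genes held 94.3% ± 0.338 of counts, mitochondrial genes 2.40% ± 0.0700 and cytosolic ribosomal protein genes 3.27% ± 0.282. Control 3 stood apart from the other 2. The biological coefficient of variation, edgeR's measure of spread between libraries beyond counting error, was 18.3% over the 3 controls, 14.3% without control 3, 17.3% without control 1 and 21.01% without control 2. Results that rest on control 3 are therefore given below by library.

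**Figure D1:**
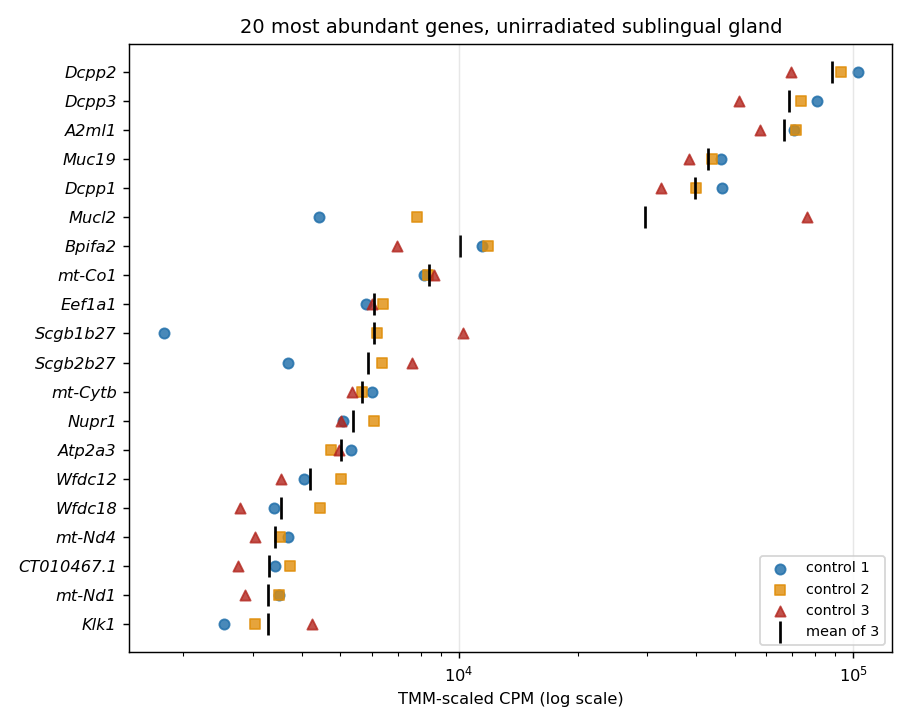
The 20 genes of highest mean TMM-scaled CPM in the 3 control libraries, on a log axis, with 1 point per library and a bar at the mean. For most of these genes the 3 points lie close together, while Mucl2, Scgb1b27 and Scgb2b27 spread widely, with Mucl2 at 4425 and 7841 CPM in controls 1 and 2 and at 76404 CPM in control 3.

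Among the secreted products, Dcpp2 (ENSMUSG00000096278, chromosome 17, 23880880 to 23900788, plus strand) had 102574, 92753 and 69356 CPM in controls 1, 2 and 3. Dcpp3 (ENSMUSG00000057417, chromosome 17, 23917458 to 23919441) had 80762, 73446 and 51383 CPM, and Dcpp1 (ENSMUSG00000096445, chromosome 17, 23880876 to 23882853) had 46494, 39961 and 32580 CPM. All 3 were lowest in control 3. Their proportions were steadier than their levels: there were 2.21, 2.32 and 2.13 Dcpp2 counts for each Dcpp1 count in the 3 libraries, and 1.27, 1.26 and 1.35 for each Dcpp3 count.

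A2ml1, a protease inhibitor of the alpha-2-macroglobulin family (ENSMUSG00000047228, chromosome 6, 128539821 to 128581608, minus strand), had 70786, 71713 and 57881 CPM. Muc19 (ENSMUSG00000044021, chromosome 15, 91838326 to 91934555, plus strand) had 46253, 43791 and 38307 CPM. Both were lowest in control 3. The same held for Bpifa2, a BPI fold protein of saliva, at 11403, 11854 and 6953 CPM, and for Wfdc12 (4052, 5011 and 3532 CPM) and Wfdc18 (3399, 4443 and 2783 CPM), small secreted proteins with a WAP domain. The whole list of secreted products, 47 genes with 36 of them at a mean of at least 1 CPM, held 35.4%, 34.7% and 35.6% of counts in the 3 libraries, and Mucl2 was high in the library where the Dcpp genes were low.

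To compare genes with each other, counts were divided by exonic length and scaled to a fixed total per library (TPM). On that scale Dcpp2 had 206596 ± 34835 TPM (SD, n = 3), Dcpp3 167974 ± 33550 and Dcpp1 110240 ± 16210. Mucl2 followed at 49633 ± 68694 TPM, a mean set by control 3. A2ml1, at 14794 ± 1463 TPM, was above Muc19, at 8068 ± 562 TPM. The Muc19 gene model holds 9105 exonic bases, and its TPM depends on that model. With exonic length, Wfdc12 (9313 ± 1663 TPM), Bpifa2 (8590 ± 2185 TPM) and Muc19 did not differ in order beyond their spread. With the longest transcript as length, Bpifa2 had 15068 TPM, above Wfdc12 at 7944 and Muc19 at 6883 TPM, so the order depended on the length used. Pigr, the receptor that carries IgA across the epithelium, had 1056 ± 75.3 TPM. Smgc, which shares its first exons with Muc19 at the same locus, had 960, 1462 and 1222 CPM, and reads from the shared exons cannot be assigned to one of the pair.

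Several families of secreted proteins, chosen by symbol after seeing the data, were counted at a mean of at least 1 CPM. That mean was reached by 13478 of all 54532 genes and by 12377 of 21995 protein-coding genes. Of 13 genes named as mucins by number, 4 reached 1 CPM, and next to Muc19 the highest of these was Muc13 at 1.11 ± 1.26 TPM. That count leaves out 2 genes without such a symbol that were far higher. Prol1, also listed as Muc10, had 4816 ± 6828 TPM, and the mucin-like Mucl2 had 49633 ± 68694 TPM. Both means were set by control 3. Muc5b, the gel-forming mucin of human saliva, was at 0 counts in controls 1 and 2 and at 7 counts in control 3. Of 40 secretoglobin genes 4 reached 1 CPM, of 11 BPI fold genes 1 (Bpifa2), of 18 WAP four-disulfide core genes 5, and of 42 beta-defensin genes none, with 40 of them at 0 counts in all 3 controls. Tff3, a trefoil peptide often made with mucins, and Zg16 and Bpifb1 had no count in any control, where 3 counts per library would be 0.169, 0.188 and 0.158 CPM. Among the major urinary proteins, small lipocalins also made in salivary glands, Mup4 (286, 301 and 267 CPM) and Mup6 (198, 185 and 182 CPM) were even across the controls, and Mup5 (19.4, 105 and 45.3 CPM) was highest in control 2. Members of these families resemble each other, so their counts may be shared.

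The enzymes that build and sialylate mucin sugars varied between libraries about as all genes did. Of 28 genes on the glycosylation list 21 reached 1 CPM. None of the 17 at 5 CPM or more differed over 2-fold between libraries, where 1.65% of all genes at that level did. Their median log2 range was 0.26, against 0.30 over all genes at that level. The sialyltransferases St3gal1 (3277, 2918 and 2872 CPM, 758 ± 33.3 TPM) and St3gal4 (522 ± 31.7 TPM) led, followed by Gne, the first enzyme of sialic acid synthesis, at 382 ± 22.2 TPM, and B3gnt6, which makes the core 3 mucin glycan, at 374 ± 25.3 TPM. Galnt12, which places the first sugar on the mucin protein, had 279 ± 25.8 TPM, and the sialic acid transporter Slc35a1 had 236 ± 10.9 TPM. St6galnac1, Gcnt1, Fut1 and Fut2 were among the 7 members under 1 CPM.

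Transcription factors of secretory epithelium also varied across the 3 libraries about as all genes did. Of 49 on the list, 41 reached 1 CPM. Over 2-fold differences were seen in 1 of the 38 at 5 CPM or more, against 1.65% of all genes at that level. Their median log2 range was 0.28, against 0.30 over all genes. Creb3l1, a membrane-bound factor of secretory cells, led with 2104, 2147 and 1926 CPM (1359 ± 62.5 TPM). Xbp1, which drives the genes of the secretory pathway, had 1443, 1450 and 1370 CPM (752 ± 17.9 TPM). Spdef, a factor of mucous cells, had 930, 700.5 and 662 CPM (568 ± 89.9 TPM) and was highest in control 1.

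Creb3l4 (295 ± 28.3 TPM) and the epithelial Ets factor Ehf (259 ± 17.1 TPM) came next. Bhlha15, also known as Mist1, a factor of exocrine acinar cells, had 464, 408 and 450 CPM (217 ± 13.0 TPM). Nkx2-3, a homeobox factor needed for sublingual gland maturation, had 296, 258 and 225 CPM (211 ± 22.6 TPM). These 2 did not differ in TPM beyond their spread. Sox2, Sox9 and Sox10, which mark progenitors and lineages during gland development, had 85.0 ± 6.55, 71.5 ± 4.18 and 38.0 ± 2.44 TPM. Etv1 had 237, 319 and 384 CPM, and Gata6 and Myb were among the 8 factors under 1 CPM.

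Of the transmitter and hormone receptors, 24 of 38 reached 1 CPM. None of the 17 at 5 CPM or more differed over 2-fold, where 1.65% of all genes at that level did. The muscarinic receptor Chrm3, which drives fluid secretion, had 63.4, 66.2 and 63.3 CPM (17.7 ± 0.736 TPM), and Chrm1 had 40.3, 37.2 and 29.5 CPM (9.44 ± 1.23 TPM). Chrm2 and Chrm4 had means under 1 CPM and Chrm5 had no count in any control. The ATP-gated channel P2rx4 was the highest of the list at 102 ± 5.12 TPM, and Vipr1, a receptor for the nerve peptide VIP, had 41.0 ± 2.87 TPM. The alpha-1 adrenergic receptors Adra1a and Adra1b were under 1 CPM, while the beta receptor Adrb1 had 7.56, 13.3 and 12.8 CPM. Tacr1, the receptor for substance P, was at 0 counts in the 3 controls.

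Growth factor receptors lay lower, with 33 of 38 at 1 CPM or more. Erbb3 (34.7 ± 5.37 TPM) and Erbb2 (23.3 ± 3.66 TPM), partners in neuregulin signalling, were followed by the BMP receptor Bmpr1a (18.3 ± 5.01 TPM) and the hedgehog transducer Smo (15.3 ± 0.875 TPM). Erbb4, Fgfr4 and Gfra1 were among the 5 under 1 CPM. Kit, a receptor of intercalated duct and mast cells, had 29.3, 29.5 and 33.2 CPM. Of the 33 receptors at 1 CPM or more, 22 were highest in control 3. The share of all genes highest in control 3 was not counted. These receptor genes are long, with a median of 6807 exonic bases, and control 3 lay above the other controls for long genes, as given below. The part of length was not tested.

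Among ligands, the leading members were Egf (171, 176 and 197 CPM), Fgf1 (95.8, 118 and 114 CPM), Wnt4 (52.4, 45.4 and 49.1 CPM) and the neurotrophic factor Nrtn (34.1, 30.5 and 23.0 CPM). Per length, Nrtn at 48.9 ± 8.27 TPM was above Fgf1 at 34.4 ± 4.50 TPM and Egf at 27.7 ± 2.88 TPM. Fgf10, a mesenchymal signal for gland branching, had 7.56, 5.06 and 5.43 CPM. Of 22 Fgf genes 7 reached 1 CPM, and of 19 Wnt genes 6.

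**Figure D2:**
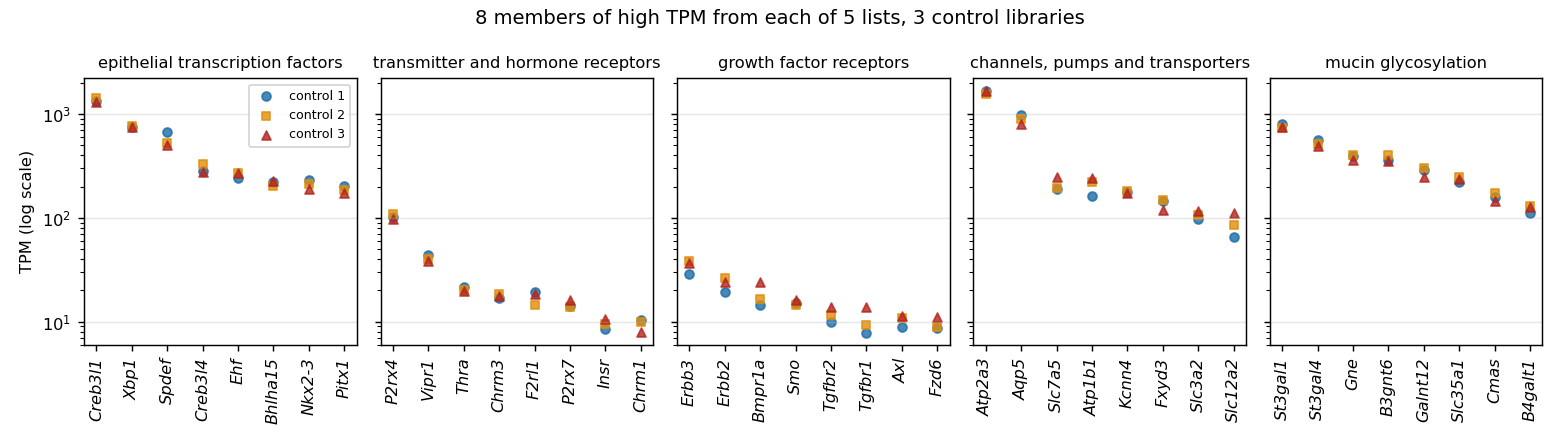
TPM, on a log axis, of 8 members of high TPM from each of 5 lists in each of the 3 control libraries, with 1 point per library. The 3 points of a gene lie close together in all panels, and control 3 has the highest point for Bmpr1a, Tgfbr2 and Tgfbr1.

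The machinery of fluid secretion was abundant. Of 50 channels, pumps and transporters 44 reached 1 CPM. None of the 41 at 5 CPM or more differed over 2-fold, where 1.65% of all genes at that level did. Atp2a3, which pumps calcium into the endoplasmic reticulum, was rank 14 of all genes by CPM (5321, 4739 and 4973 CPM, 1631 ± 67.3 TPM). The water channel Aqp5 (1526, 1350 and 1172 CPM, 891 ± 91.0 TPM) was one of 3 of 11 aquaporin genes at 1 CPM or more, with Aqp1 (10.9 ± 1.05 TPM), an aquaporin of endothelium, and Aqp2 (3.85 ± 0.793 TPM). Aqp3, Aqp4 and Aqp8 were under 1 CPM.

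The sodium pump subunit Atp1b1 (209 ± 40.3 TPM) and the potassium channel Kcnn4 (179 ± 4.07 TPM) were well detected. Slc12a2, the cotransporter that loads acinar cells with chloride, had 432, 534 and 693 CPM (87.4 ± 23.2 TPM) and was highest in control 3. Ano1, the calcium-activated chloride channel through which acinar chloride leaves, had 93.9, 96.8 and 111 CPM (27.8 ± 3.28 TPM). Cftr, a chloride channel of ducts, had 8.11, 11.9 and 10.0 CPM. Slc4a9 and Best2 were at or near 0.

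Keratin and junction genes were led by those of simple epithelia. Of 54 keratin genes 13 reached 1 CPM. Krt18 (837, 900.4 and 766 CPM, 999 ± 76.1 TPM) and Krt8 (437, 421 and 387 CPM, 364 ± 13.2 TPM), the pair of simple epithelia, led. The basal keratins Krt14 (60.7, 55.5 and 55.5 CPM) and Krt5 (61.0, 48.0 and 58.2 CPM) were lower and even. Acta2, the actin of myoepithelial and smooth muscle cells, had 436, 372 and 360.5 CPM. Among 25 claudins, Cldn10 (291 ± 19.6 TPM) and Cldn3 (281 ± 20.6 TPM) led and did not differ beyond their spread, and among 20 connexins Gjb2 (117 ± 4.78 TPM) and Gjb1 (107 ± 14.4 TPM) led.

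Marker lists of other cells and neighbouring tissues were summed per library. In bulk tissue, fewer cells of a type and less RNA per cell cannot be told apart. The acinar and demilune list summed to 351210, 326266 and 258131 CPM in controls 1, 2 and 3. The duct list summed to 5944, 6567 and 7516 CPM, and that order came from Klk1, a tissue kallikrein of salivary ducts, at 2538, 3030 and 4234 CPM. Without Klk1 the duct list summed to 3406, 3536 and 3281 CPM, lowest in control 3. Fibroblast (992, 905 and 893 CPM), blood endothelium (511, 477 and 508 CPM) and macrophage lists (538, 557 and 521 CPM) were even.

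Adjacent oral tissue was little represented by these lists. Skeletal muscle genes summed to 24.3, 25.4 and 25.4 CPM over 19 genes, most of it from Eno3, and Acta1, the actin of skeletal muscle, had 0.976, 1.35 and 2.32 CPM. Oral squamous genes summed to 16.8, 15.9 and 19.7 CPM, with 9 of 17 at 0 in the 3 controls, Krt13 among them. Lymph node genes summed to 0.0610, 0.607 and 0.396 CPM. The adipocyte list summed to 51.7, 60.7 and 48.8 CPM, with 5 of its 10 members at 1 CPM or more. Within it Adipoq, a defining adipocyte gene, had 0, 0.337 and 0.283 CPM.

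Blood-borne and immune lists showed which libraries differed. The erythrocyte list was highest in control 2, at 140, 459 and 107 CPM, and all 5 of its members at 1 CPM or more were highest there. The B cell list summed to 0.915, 2.36 and 1.87 CPM, and T and NK cell genes to 14.1, 14.3 and 14.3 CPM. Transcripts of antibody-secreting cells were graded. Igha, the heavy chain of IgA, had 172, 322 and 858 CPM, Igkc, the kappa light chain, 109, 213 and 517 CPM, and Jchain, which joins IgA into dimers, 30.4, 68.1 and 186 CPM. All 3 were lowest in control 1 and highest in control 3. Igkc stood at 0.633, 0.663 and 0.603 counts for each Igha count in the 3 libraries. Ighm had 6.22, 5.73 and 16.0 CPM.

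**Figure D3:**
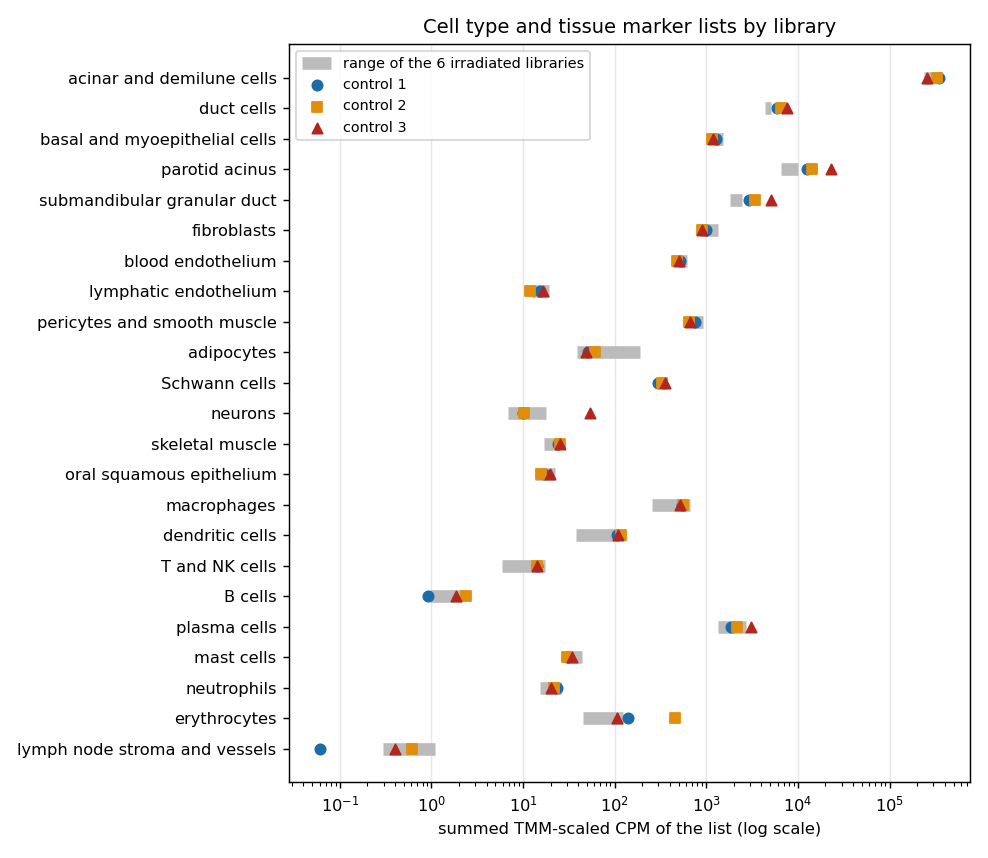
Summed TMM-scaled CPM of 23 marker lists, on a log axis, with 1 point per control library and a grey bar for the range of the 6 irradiated libraries. Control 3 stands apart for the neuron, parotid acinus, submandibular granular duct and plasma cell lists, and control 2 for the erythrocyte list.

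Control 3 held several secreted products at many times the level of the other controls. Mucl2, a mucin-like secreted protein (ENSMUSG00000036925, chromosome 15, 103895855 to 103899312, minus strand), had 4425, 7841 and 76404 CPM. Control 3 was 12.5 times the mean of the others, and rank 6 of Mucl2 by mean CPM came from that library. Prol1, listed by RefSeq also as Muc10, a mucin known from the submandibular gland, had 469, 726 and 8369 CPM, 14.0 times higher in control 3. There were 9.43, 10.8 and 9.13 Mucl2 counts for each Prol1 count in the 3 controls, so the pair kept its proportion over that range.

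Car6, a carbonic anhydrase secreted into saliva, had 304, 935 and 5050 CPM, and Pip, prolactin-induced protein, had 421, 804 and 2459 CPM. The secretoglobins Scgb1b27 (1787, 6206 and 10243 CPM) and Scgb2b26 (221, 502 and 2686 CPM) were graded in the same order, control 1 lowest and control 3 highest. Scgb2b27, the neighbour of Scgb1b27, was at 3676, 6392 and 7602 CPM. Lpo, lactoperoxidase, had 25.1, 21.4 and 131 CPM.

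The kallikreins of the granular ducts, a structure known from the mouse submandibular gland, moved in part. Klk1b26 had 14.1, 20.5 and 206 CPM, Klk1b5 6.16, 4.52 and 50.2 CPM, and Klk1b22 4.76, 3.98 and 38.7 CPM. Klk1b9 had 13.2, 15.9 and 31.6 CPM. The Klk1b genes are near-identical copies on chromosome 7, so their counts are uncertain one by one. Of the 17 genes on the submandibular granular duct list at 1 CPM or more, 16 were highest in control 3. The same held for 25 of 44 channels, pumps and transporters and for 3 of 16 acinar and demilune genes. The share of all genes was not counted. Other members of that list were mixed. Egf was well detected in every control, at the levels given above among ligands. Ren1 had 0, 0 and 4 counts, and Smr3a and Crisp1 were under 1 CPM. On the parotid list, 4 of the 6 members at 5 CPM or more differed over 2-fold, against 1.65% of all genes at that level. These were Prol1, Car6, Pip and Lpo, all highest in control 3, while Bpifa2 and Cst10 did not differ over 2-fold. Amy1 had 2.07, 3.24 and 3.00 CPM, and Prb1, Prh1 and Prpmp5 were under 1 CPM. The part of neighbouring gland tissue in control 3 was not tested.

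Control 3 also held neuronal transcripts. The 19 genes of the neuron list summed to 10.1, 10.2 and 54.2 CPM, and all 7 members at 1 CPM or more were highest in control 3. The share of all genes highest there was not counted. Ret, the receptor for neurturin and related factors, had 2.56, 3.31 and 19.3 CPM. Vip, a peptide of parasympathetic nerves, had 1.59, 1.01 and 7.69 CPM. Dbh, which makes noradrenaline, had 0, 0 and 3.56 CPM, and Tubb3, a neuronal tubulin, had 0.427, 0 and 5.15 CPM. Th, which precedes Dbh in the same pathway, had no count. Schwann cell genes were only slightly graded, at 300, 327 and 358 CPM.

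**Figure D4:**
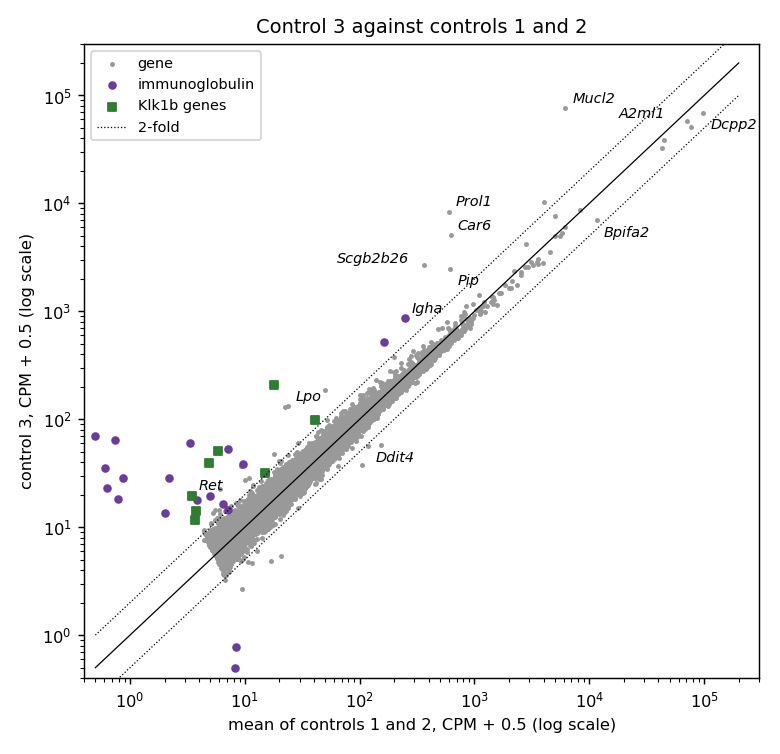
Control 3 against the mean of controls 1 and 2 for genes with a mean of at least 5 CPM, in CPM plus 0.5 on log axes, with dotted lines at 2-fold. Mucl2, Prol1, Car6, Scgb2b26 and Pip, the Klk1b genes (green) and most immunoglobulin genes (purple) lie above the line of 2-fold.

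Counted over the transcriptome, the spread was narrow. Of 10389 genes with a mean of at least 5 CPM, 171 (1.65%) differed over 2-fold between the highest and lowest control, and the median log2 range was 0.30. Control 3 was highest in 121 of the 171, control 2 in 27 and control 1 in 23. Without control 3 the number over 2-fold was 53. Without control 1 it was 97. These counts compare libraries of 1 group, with no test. Against the mean of the other 2, control 3 had 61 genes over 2-fold higher and 12 lower, control 1 had 4 higher and 63 lower, and control 2 had 10 higher and 35 lower. Of the 61, 17 were immunoglobulin genes and 8 were Klk1b genes.

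The 20 genes of largest range comprised 15 immunoglobulin variable segments and 5 others, Prol1, Mucl2, Car6, Klk1b26 and Scgb2b26. In 18 of the 20 control 3 was highest. Igkv6-32 had 0, 0 and 69.1 CPM and Igkv1-110 0.427, 0.0675 and 63.1 CPM, while Igkv12-44 was found in control 2 alone, at 15.5 CPM. Control 1 had its own high genes, named here after their values were seen: Ddit4, a stress-response gene, had 193, 44.6 and 56.0 CPM, Atf3 24.7, 5.40 and 9.50 CPM, and Chac1 323, 107 and 196 CPM.

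The library differences also ran with gene length. Over 15343 genes in 10 groups of equal number by exonic length, control 3 lay below the other 2 for the shortest group, by a median log2 difference of -0.10, and above them for the longest, by 0.23. Control 1 ran the opposite way, from 0.06 to -0.17, and control 2 from 0.05 to -0.05. The Spearman correlation across genes of that difference with length was 0.28 in control 3, -0.21 in control 1 and -0.10 in control 2; genes share libraries and are not independent. The Dcpp genes are short, at 617 to 732 exonic bases. The part of length in their lower level in control 3 was not tested.

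**Figure D5:**
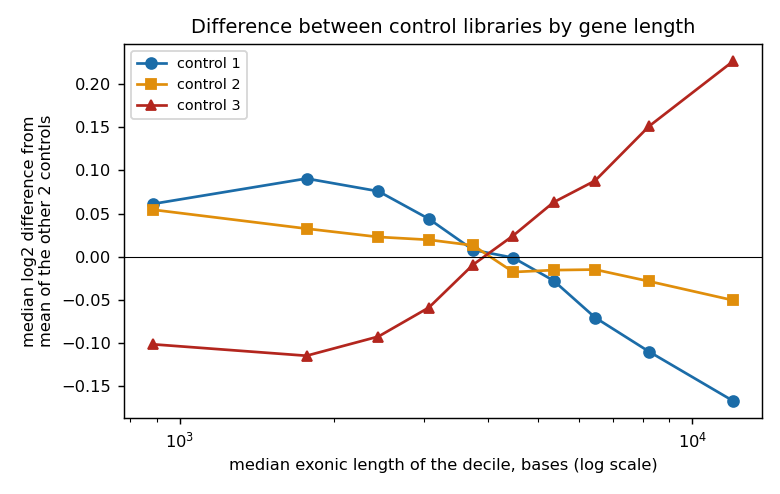
Median log2 difference of each control from the mean of the other 2, by decile of exonic length (x axis, bases, log scale; about 1534 genes a decile). The line of control 3 climbs from -0.10 to 0.23, and that of control 1 falls from 0.06 to -0.17.

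Set against the 6 irradiated libraries, the unirradiated gland differed at many genes. The comparison asked where the baseline lay relative to the mean of the day 7 and day 14 groups. By edgeR's quasi-likelihood test, two-sided, with Benjamini-Hochberg adjustment, 1890 of 15348 genes were higher in the irradiated glands (12.3%) and 1717 lower (11.2%), 23.5% in all, and the median log2 change over all genes was 0.02. With control 1 left out, 740 were higher and 900 lower, and with control 2 left out, 937 and 1233. The log2 change had a Spearman correlation of 0.41 with exonic length across genes, and after each library was corrected for a trend with length, a correction chosen after seeing the data, 965 were higher and 1282 lower.

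Of the 38 secreted products tested, 12 were lower in the irradiated glands (11.2% of all genes) and 1 was higher, with a median log2 change of -0.42. With the length correction 5 were lower and none higher, where 8.35% of all genes were lower and 6.29% higher. Without control 3 there were 16 lower and none higher, where 14.0% of all genes were lower and 14.0% higher. The submandibular granular duct list, which shares Klk1, summed to 2906 to 5101 CPM in controls and 1823 to 2439 CPM in irradiated libraries, and Klk1 held most of each sum. Without Klk1 it summed to 368, 392 and 867 CPM in controls 1, 2 and 3 and to 340 to 442 CPM in irradiated libraries, so only control 3 lay outside the irradiated range. The parotid list summed to 12648 to 22990 CPM in controls and 6541 to 9999 CPM in irradiated libraries, and Bpifa2, a top product of the sublingual libraries, held most of it in controls 1 and 2. Without Bpifa2 the list summed to 1245, 2514 and 16037 CPM in controls and to 350 to 3631 CPM in irradiated libraries. Controls 1 and 2 thus lay within the irradiated range. Prol1, known also from the submandibular gland, gave 8369 CPM of the control 3 sum. The part of both tissues in the difference was not tested. Klk1 fell by 1.03 ± 0.16 on the log2 scale (SE, adjusted p = 0.00158, edgeR), from 2538 to 4234 CPM in controls to 1381 to 2058 CPM. Cst10, a cystatin, had 22.0, 22.3 and 22.7 CPM in controls and 6.82 to 13.0 CPM in irradiated libraries, a log2 change of -1.27 ± 0.18 (adjusted p = 0.000282, edgeR).

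Dcpp2 fell by 0.56 ± 0.09 on the log2 scale (adjusted p = 0.000602, edgeR), from 69356 to 102574 CPM in controls to 49583 to 71111 CPM, and these ranges overlapped through control 3. Dcpp1 fell by 0.49 ± 0.09 on the log2 scale (adjusted p = 0.00143, edgeR) and Dcpp3 by 0.52 ± 0.11 (adjusted p = 0.00353, edgeR), and both calls were lost with the length correction. Muc19 fell by 0.32 ± 0.08 (adjusted p = 0.00758, edgeR), a call lost without control 1. A2ml1 was the 1 higher member, by 0.29 ± 0.09 (adjusted p = 0.027, edgeR), a call lost with the length correction, when any of the 3 controls was left out, and without replicate 2 or replicate 3 of day 7 or of day 14. Mucl2 differed by -3.70 ± 1.65 with an adjusted p of 0.165 (edgeR), so that the difference did not pass, and its irradiated libraries ran from 39.4 to 14195 CPM. The highest of those 6 was day 14 replicate 2, which was also the highest of the 6 for Prol1, Car6, Pip, Scgb2b26 and Klk1b26. Of the 61 genes high in control 3, that library was highest of the 6 in 29 (47.5%), and day 7 replicate 1 was highest in 12. The share of all genes for which each library was highest was not counted.

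Duct genes gave 6 lower and none higher of 21 tested, with a median of -0.34, where 11.2% of all genes were lower and 12.3% higher. Without Klk1 the duct list summed to 3406, 3536 and 3281 CPM in controls 1, 2 and 3. In irradiated libraries that sum ran from 2928 to 3282 CPM, so control 3 lay within the irradiated range. Epithelial transcription factors gave 10 lower and 8 higher of 46. Without control 1 they gave 6 lower and 3 higher, and the shares over all genes also fell, to 5.69% lower and 4.68% higher. Spdef (-0.39 ± 0.10, adjusted p = 0.00919, edgeR), Bhlha15 (-0.33) and Nkx2-3 (-0.31) were lower, and Etv1 (0.68), an Ets factor, and Foxa1 (0.47) were higher. The calls of Spdef and Nkx2-3 were lost with the length correction and without control 1, and that of Nkx2-3 also without control 2. Growth factor receptors gave 11 higher and none lower of 36, with a median of 0.21. The counts were 6 higher and 2 lower with the length correction (6.29% higher and 8.35% lower over all genes), with a median of 0.01. They were 5 and 1 without control 1 (4.68% and 5.69% over all genes). Without control 2 they were 6 and 2 (5.91% and 7.78% over all genes). Their median exonic length was 6807 bases, against 1816 bases for the secreted products.

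Channels, pumps and transporters gave 13 higher and 3 lower of 46, where 12.3% of all genes were higher and 11.2% lower. They gave 6 higher and 2 lower under the length correction (6.29% higher and 8.35% lower over all genes). Without control 1 they gave 4 and 3 (4.68% and 5.69% over all genes). Without control 2 they gave 7 and 2 (5.91% and 7.78% over all genes). Ano1 was higher by 0.53 ± 0.09 (adjusted p = 0.000635, edgeR), from 93.9 to 111 CPM in controls to 113 to 180 CPM. Chrm3 (-0.01 ± 0.08, adjusted p = 0.919) and Chrm1 (0.16 ± 0.11, adjusted p = 0.293) did not pass the edgeR test.

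The 6 genes furthest above the controls, among those called and without overlap between the 3 control and 6 irradiated libraries (16.0% of all genes tested had no overlap), were Mki67, Racgap1, Eda2r, Cdc20, Vcl and Pik3c2a. Mki67, a marker of dividing cells, had 1.83, 3.10 and 3.45 CPM in controls, with 32.1 ± 6.76 CPM at day 7 and 7.16 ± 3.11 CPM at day 14 (SD, n = 3). Eda2r, a target of p53, had 2.32, 3.37 and 3.22 CPM in controls, with 11.5 ± 1.53 and 8.03 ± 0.616 CPM at the 2 times. The call of Pik3c2a was lost with the length correction, without control 1 or control 2, without replicate 1 or replicate 3 of day 7, and without any of the 3 day 14 replicates. The 6 furthest below were Arntl, Nfil3, Cst10, Lingo4, Kcnk3 and Tppp3. Arntl, a core factor of the circadian clock, had 12.1, 13.2 and 11.8 CPM in controls, with 1.05 ± 0.208 CPM at day 7 and 9.29 ± 1.06 CPM at day 14. The time of day at collection was not given in the sources used here. Nfil3, also a clock-regulated factor, had 48.9, 31.5 and 24.4 CPM in controls, with 6.30 ± 2.13 CPM at day 7 and 18.0 ± 3.20 CPM at day 14.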

How the data were processed

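Gene counts of 9 libraries were used as deposited. Per the submitters' processing notes, the authors aligned reads to mm10 with STAR and counted them with featureCounts, and DESeq2 is also named there; versions, strand setting and annotation release were not given in the sources used here. The deposited counts are whole numbers of reads per gene (54532 genes), with 15962399 to 18977590 counts per control library. Identifiers were matched to GENCODE M21 on GRCm38 (54495 matched), which gave positions and exonic lengths. Reads of genes that overlap on opposite strands may be mixed. Promoter windows came from RefSeq (GRCm38.p6), and sequences were compared with Biopython.

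Groups followed the titles. CPM were scaled by TMM in edgeR 4.0.16 (R 4.3.3), and TPM used exonic lengths of at least 200 bases. Irradiated libraries (mean of day 7 and day 14) were compared with controls by edgeR's quasi-likelihood test after filterByExpr, with an adjusted p under 0.05. The procedure was run on simulated counts with the same spread for every gene. Those counts had no library that stood apart and no trend with gene length, so that run does not give the error rate in these data. The members and the 31 gene lists (597 of 600 names matched) were chosen with earlier results of these data known, and the families by symbol were chosen after seeing the data. Genes named were the 20 most abundant, the 6 highest by TPM in each list, the 20 of largest range among controls at 5 CPM or more, the 6 largest differences each way from irradiated libraries, and a short list of gland markers; other named genes were chosen for their role. A few genes that this rule would name are not reported here. Alternatives covered scaling (plain CPM, DESeq2 1.42.0 size factors, TMM without the 20 most abundant genes), filters, the DESeq2 test, a replicate block, gene length and leaving out each library.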

Additional observations from a re-analysis of the deposited data

How the results depend on the processing

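The percent of counts in the 20 most abundant genes, the percent in Dcpp1, Dcpp2 and Dcpp3, and the number of genes at 1 CPM or more stayed close to their values under every alternative run. Levels of single genes depended more on the choices. With the longest transcript as length, 65 of the gene TPM values checked moved by more than their SD and 95 did not. With plain CPM, 40 of the gene CPM values moved by more than their SD and 120 did not. The count of genes over 2-fold among controls was 171, with 807 at a minimum of 1 CPM, 44 at a minimum of 20 CPM, and 53 to 124 with 1 control left out, lowest without control 3. The comparison with irradiated libraries gave 1890 genes higher and 1717 lower. Leaving out 1 library gave 740 to 2206 higher and 900 to 2210 lower, with the lowest counts without control 1 and the highest without control 3; 937 were higher and 1233 lower without control 2. The length correction gave 965 higher, and an adjusted p under 0.01 gave 795 higher and 856 lower. DESeq2's size factors moved the split to 1793 higher and 1873 lower. Same-numbered libraries of different groups did not deviate together (r from -0.15 to 0.07), so the numbers were not taken to pair samples, and the replicate block gave 1710 higher and 1544 lower. With 3 libraries a group, depth limited genes under about 1 CPM.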
